A study of Saccharomyces cerevisiae with 7 samples.

Results

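The promoters examined here belong to 42 middle and late sporulation genes of budding yeast, taken from a list of named genes. No measured value entered the rule, but earlier results of these data were known when genes and lists were chosen. For each gene, hits on a map of the meiotic endonuclease Spo11 were counted. The windows were the 500 bp before the start codon and the open reading frame (ORF). The same windows were measured for all 5834 ORFs outside chromosome III. Of the 42 genes, 41 lie outside chromosome III and enter all counts. SPS22, on chromosome III, is given apart. CC-seq maps the 5′ DNA ends to which Spo11 stays covalently linked, at single-nucleotide resolution and on each strand. The study sequenced 6 SPO11+ libraries from 5 biological replicates, as the labels name them, and 1 library of spo11-Y135F, which carries a Spo11 without its catalytic tyrosine. All strains were SK1 cells deleted for SAE2, so that Spo11 is not clipped from the DNA in either genotype, and were harvested 6 h into meiosis. Both technical libraries of replicate 5 were summed. The names under which those maps were deposited say WT where their labels say sae2, so values without replicate 5 are included in the closing ranges.

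Sporulation genes are switched on in waves. The middle genes are activated by Ndt80 through a promoter motif called the middle sporulation element, and many of them are held off by the repressor Sum1 until the cell commits to the meiotic divisions. Their products shape the spore: proteins of the meiotic plaque on the spindle pole bodies start the prospore membrane, the membrane grows around each nucleus, and a wall of mannan, glucan, chitosan and dityrosine is laid down. Spo11 cuts in meiotic prophase, mostly in the open chromatin upstream of genes, which is before most of these genes are transcribed.

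The SPO11+ replicates held 3177210, 8564017, 4502308, 3559541 and 3569290 hits, and the spo11-Y135F library held 2326054. Hits of spo11-Y135F arise without Spo11 cleavage, so SPO11+ hits can also include ends that Spo11 did not make. The share of such ends in SPO11+ was not measured. Hotspots, which are stretches of at least 25 bp where the smoothed mean map exceeded 3 times its mean, took 66.6% to 76.0% of the SPO11+ hits and 6.53% of the spo11-Y135F hits. Densities are given in HpM per bp, where 1 HpM is 1 hit in 1000000 hits of the library. Since every library is scaled to its own total, the genotypes were compared in the share of hits and not in the number of breaks per cell. Runs of more than 200 bp without a hit in any library were taken as masked, and none fell in the windows of the 41 genes. Shorter masked stretches would not be seen.

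In SPO11+, sporulation gene promoters received hits at a lower typical density than promoters in general, but they spanned a wide range. The median over the 41 genes was 0.0762 HpM per bp, against 0.123 HpM per bp over all ORFs, which is 0.622 of the general median. In single replicates this ratio ran from 0.586 to 0.712, so the sporulation genes were lower in each of the 5. Of the 41 promoters, 24 lay below the median of all ORFs, and the median percentile of the 41 was 36.1. The highest promoter, of CRR1, exceeded the lowest, of SPS2, by 55.2-fold. The SPS2 promoter, at 0.0171 HpM per bp, was close to its own ORF at 0.0161, so this fold is taken against a value near the floor. In spo11-Y135F the 41 promoters differed by no more than 1.67-fold. Their median there, 0.0929 HpM per bp, was close to the 0.0894 HpM per bp of all ORFs. Across the 41 genes the rank correlation between any 2 SPO11+ replicates was 0.952 to 0.990, while with spo11-Y135F it was -0.17 to -0.11. The median coefficient of variation of a promoter over the 5 replicates was 16.4%. Neighbours in the order of means were nonetheless hard to tell apart, since only 3 of 40 neighbouring pairs kept their order in all 5 replicates.

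**Figure D1:**
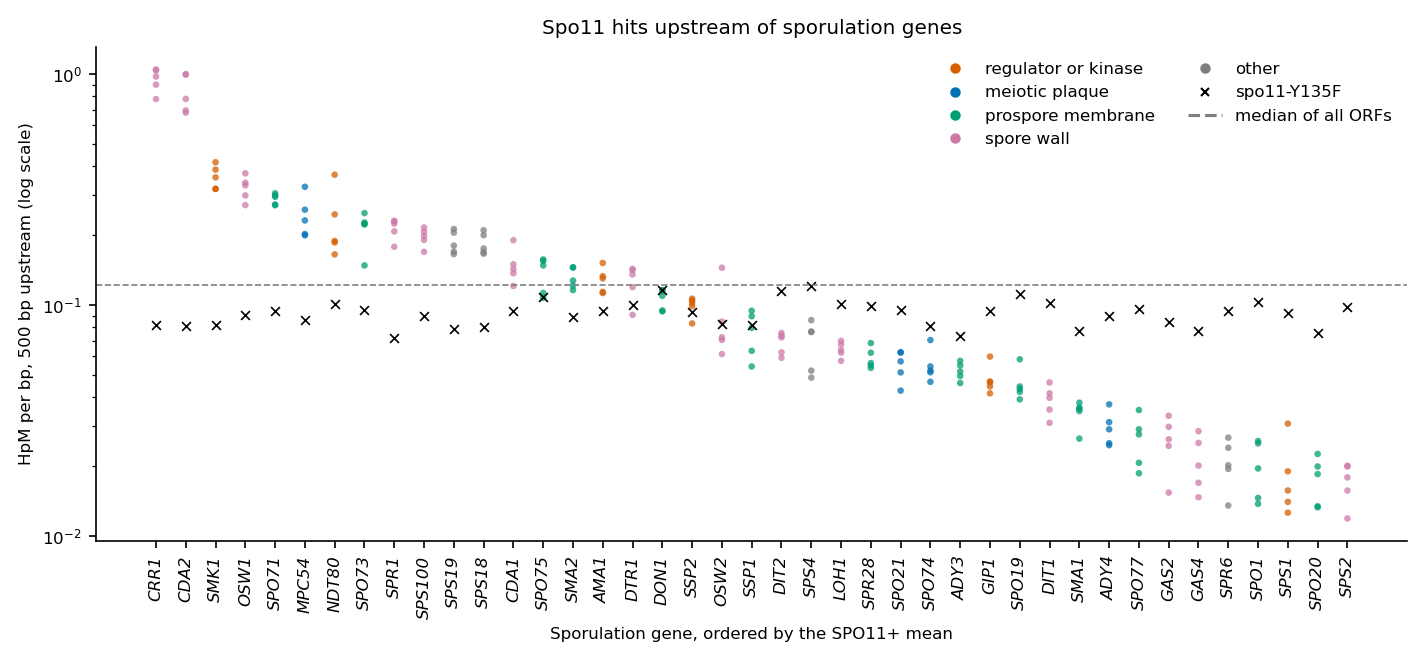
Hit density in the 500 bp before the start codon (HpM per bp, log scale) for the 41 sporulation genes, ordered by the SPO11+ mean. Coloured points are the 5 SPO11+ replicates, coloured by the role of the gene, crosses are the single spo11-Y135F library, and the dashed line is the SPO11+ median of all ORFs at 0.123 HpM per bp. The SPO11+ values fall from 0.947 (CRR1) to 0.0171 (SPS2), while the crosses stay between 0.0722 and 0.120.

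The medians differed by gene arrangement, which was not tested. The 17 sporulation genes that share their upstream region with a divergently transcribed neighbour had a median of 0.131 HpM per bp, and the 24 that follow a neighbour in tandem had 0.0570 HpM per bp. Over all ORFs the medians were 0.171 for divergent and 0.0863 for tandem upstream regions, so the sporulation genes were lower than the general median in both arrangements. Divergent regions made up 52.1% of all ORFs. Each window was 500 bp whatever the neighbour, and 19 of the 41 windows were intergenic throughout, against 44.1% of all windows. Across the 41 genes the rank correlation between density and the intergenic length inside the window was 0.09.

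The strongest promoters of the list lay before a pair of spore wall genes. Both upstream regions are shared with a divergent neighbour, FRE1 at 644 bp from CRR1 and DPA10 at 825 bp from CDA2. The hits cannot be credited to 1 gene of either pair. CRR1, which encodes a spore wall glycosidase related to chitin transglycosidases, had 0.975, 1.04, 0.779, 1.05 and 0.899 HpM per bp in replicates 1 to 5 (mean 0.947 ± 0.111, SD, n = 5), against 0.0817 in spo11-Y135F. CDA2, which encodes a chitin deacetylase that makes the chitosan of the spore wall, had 0.999, 0.993, 0.681, 0.695 and 0.780 HpM per bp (mean 0.829 ± 0.157), against 0.0808 in spo11-Y135F. Every SPO11+ replicate of both genes lay far above the control library and above all other sporulation promoters, and the order of the pair was CRR1 over CDA2 in 4 of 5 replicates. They stood at percentiles 93.6 and 91.7 of all ORFs. The 2 promoters together took 29.4% ± 2.58 of the hits in all 41 windows. The hotspot at CRR1, on chromosome XII from 567990 to 568412 in the coordinates of the authors' Cer3H4L2 map, held 466 ± 54.9 HpM and ranked 360 of 2762 hotspots outside chromosome III. The hotspot at CDA2, on chromosome XII from 747304 to 747815, held 549 ± 140 HpM and ranked 297. Its highest smoothed point lay 491 bp before the start codon of CDA2, which is nearer to the start of DPA10. Only 20.9% of the CDA2 window's hits fell within 250 bp of the CDA2 start.

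The next 4 promoters lay well below this pair. SMK1, the mitogen-activated protein kinase that controls spore wall assembly, had 0.318, 0.415, 0.319, 0.357 and 0.386 HpM per bp (mean 0.359 ± 0.0424). Only 36 bp separate SMK1 from the divergent YPR053C, so that most of its window, and the highest point of its hotspot 193 bp before the start, lie inside the neighbouring ORF. OSW1, which is needed for the outer spore wall, had 0.271, 0.372, 0.298, 0.338 and 0.329 HpM per bp (mean 0.322 ± 0.0387). SPO71, whose product acts in prospore membrane growth, had 0.298, 0.304, 0.294, 0.270 and 0.272 HpM per bp (mean 0.288 ± 0.0156). MPC54, a component of the meiotic plaque, had 0.232, 0.259, 0.200, 0.325 and 0.203 HpM per bp (mean 0.244 ± 0.0512). In all 4 genes every SPO11+ replicate exceeded the spo11-Y135F value, which was 0.0817 for SMK1, 0.0903 for OSW1, 0.0937 for SPO71 and 0.0860 for MPC54. SMK1 exceeded OSW1 in 5 of 5 replicates, whereas OSW1 and SPO71, and SPO71 and MPC54, kept their order in 4. The 6 strongest promoters took 49.4% ± 2.18 of the hits in the 41 windows in SPO11+ and 13.6% in spo11-Y135F. Since these 6 were picked by their SPO11+ mean, a large share in SPO11+ follows from the choice.

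NDT80 encodes the transcription factor that activates the middle genes. Its promoter had 0.166, 0.247, 0.189, 0.366 and 0.187 HpM per bp in replicates 1 to 5 (mean 0.231 ± 0.0815), against 0.101 in spo11-Y135F, whose 118 hits give a 95% Wilson interval of 0.0847 to 0.121. All 5 SPO11+ replicates exceeded this interval, but replicate 4 was well above the others and the rank of NDT80 among the 41 genes ran from 3 to 12. The hits formed 1 hotspot on chromosome VIII, from 356247 to 356421, with 102 ± 39.2 HpM and the highest point of the smoothed map 227 bp before the start codon. Most hits of the window fell in the hotspot, as the strand tracks show.

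**Figure D2:**
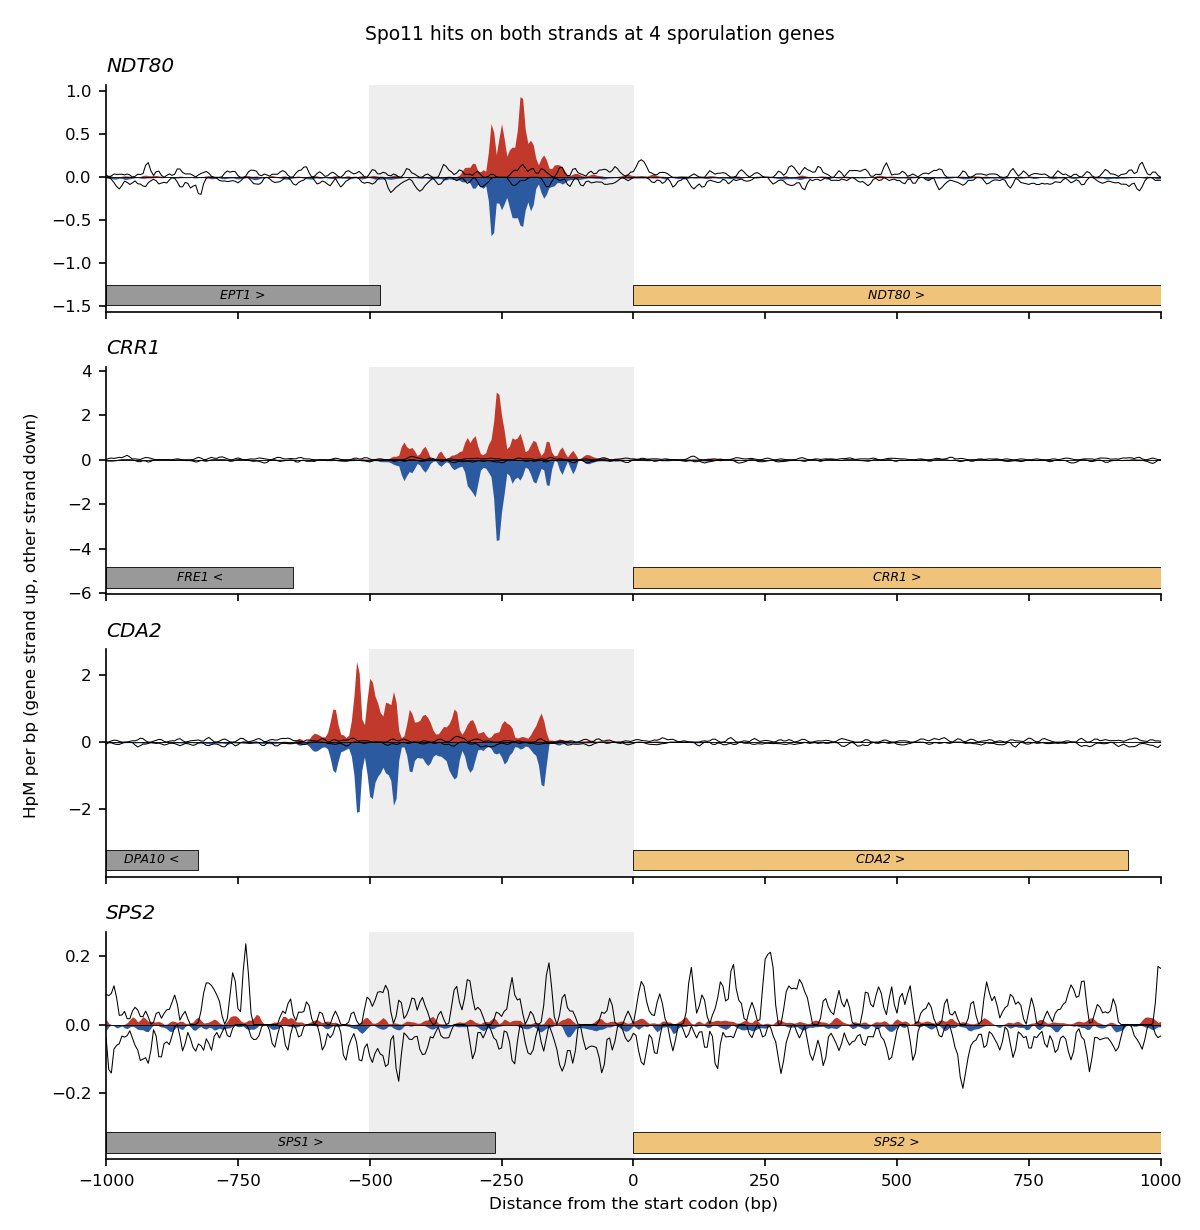
HpM per bp, smoothed over 23 bp, by distance from the start codon (bp) at NDT80, CRR1, CDA2 and SPS2, with the gene's own strand upward and the other strand downward. Filled areas are the mean of 5 SPO11+ replicates, black lines are the single spo11-Y135F library, the shaded band is the 500 bp window, boxes are ORFs with arrowheads for their direction, and each gene has its own vertical scale. NDT80 and CRR1 each have 1 hotspot inside the window, the CDA2 hotspot reaches past the window, and SPS2 has none.

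At the other end, 6 promoters had densities close to those of coding sequence. SPS2, which encodes a spore wall protein, had 0.0201, 0.0119, 0.0200, 0.0157 and 0.0179 HpM per bp (mean 0.0171 ± 0.00336), and its own ORF had 0.0161 ± 0.0040. SPO20, the SNAP-25-like protein that drives vesicle fusion at the prospore membrane, had 0.0227, 0.0133, 0.0200, 0.0185 and 0.0135 HpM per bp (mean 0.0176). SPS1, a protein kinase of the Ste20 group, had 0.0157, 0.0126, 0.0307, 0.0140 and 0.0191 HpM per bp (mean 0.0184). In these 3 genes the values overlapped from gene to gene, and all 15 lay under the spo11-Y135F values of 0.0980, 0.0757 and 0.0920 HpM per bp. SPO1, which resembles phospholipase B, had 0.0252, 0.0138, 0.0258, 0.0146 and 0.0196 HpM per bp. SPR6, of no assigned role here, had 0.0195, 0.0135, 0.0267, 0.0202 and 0.0241 HpM per bp. GAS4, a glucanosyltransferase of the spore wall, had 0.0170, 0.0147, 0.0284, 0.0253 and 0.0202 HpM per bp. These 6 were at percentiles 4.95 to 7.70 of all ORFs. SPS1 and SPS2 are tandem neighbours 262 bp apart, so part of the SPS2 window is the end of the SPS1 ORF. The emptiness at SPO20 did not extend upstream: from 501 to 1000 bp before its start codon the density was 0.0935 ± 0.0106 HpM per bp.

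By role, the highest and lowest promoters were mixed. The 14 spore wall genes ran from 0.0171 to 0.947 HpM per bp with a median of 0.106, and the 6 regulators and kinases ran from 0.0184 to 0.359 with a median of 0.114. The 13 prospore membrane genes had a median of 0.0589 HpM per bp and the 4 meiotic plaque genes 0.0550. The remaining 4 genes, SPS4, SPS18, SPS19 and SPR6, had a median of 0.126. The ranges of all 5 groups overlapped, and no test between them was made. DIT1 and DIT2, which make the dityrosine of the outer wall, are transcribed away from each other across 898 bp and were both low, at 0.0387 ± 0.00586 and 0.0686 ± 0.0074 HpM per bp. SPS18 and SPS19, the latter a peroxisomal reductase of fatty acid breakdown, are 300 bp apart and share 1 hotspot of 81.7 ± 12.4 HpM on chromosome XIV, from 259320 to 259465. Their near-equal densities of 0.185 and 0.187 HpM per bp come largely from the same hits. The chitin deacetylase gene CDA1, a paralog of CDA2 on the same chromosome, had 0.148 ± 0.0260 HpM per bp.

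Against the catalytic mutant, the sporulation promoters went both ways. By edgeR's quasi-likelihood test with Benjamini-Hochberg adjustment over 5740 promoters, 14 of the 41 held a higher share of hits in SPO11+ than in spo11-Y135F, where 50.2% of all promoters did. A lower share was found for 20 of the 41, against 30.0% of all promoters, and 7 did not pass the test. The spread came from the 5 SPO11+ replicates, and the lone spo11-Y135F library was taken to vary like them, so the control has no replicate check. The log2 difference was 3.53 for CRR1 (adjusted p = 1.23e-13 in edgeR), 3.36 for CDA2 and 2.14 for SMK1, and it was 1.83 for OSW1, 1.62 for SPO71 and 1.50 for MPC54. For NDT80 it was 1.19 (adjusted p = 0.000657 in edgeR), with all 5 replicates above the control, but this call was lost with TMM factors, where the difference was 0.65 (adjusted p = 0.0802 in edgeR), and in DESeq2, where it was 0.68 (adjusted p = 0.0595). Among the lower promoters it was -2.54 for SPS2, -2.40 for SPO1 and -2.33 for SPS1, and it was -2.19 for SPR6, -2.12 for SPO20 and -1.89 for GAS4. With hits outside hotspots as library size the calls of SPO20 (-0.46, adjusted p = 0.101 in edgeR) and GAS4 (-0.22, adjusted p = 0.422 in edgeR) were lost, and SPR6 was at -0.54 (adjusted p = 0.0421 in edgeR).

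The other 8 higher promoters were those of SPO73, SPR1, SPS100, SPS18, SPS19, CDA1, SMA2 and NDT80, between 0.131 and 0.231 HpM per bp. The 7 that did not pass lay between 0.0762 and 0.136 HpM per bp. They were AMA1, an activator of the anaphase-promoting complex in meiosis, SSP2, an activator of Smk1, DTR1, a transporter of dityrosine precursors, the outer wall gene OSW2, and SPO75, DON1 and SSP1 of the prospore membrane. The other 14 lower promoters lay between 0.0258 and 0.0686 HpM per bp. They were those of the plaque genes SPO21, SPO74 and ADY4, of ADY3, SPR28 (a septin), SPO19, SPO77 and SMA1 of the prospore membrane, of the wall genes DIT1, DIT2, GAS2 and LOH1, and of GIP1 and SPS4. These counts depend on the scale. When each library was scaled to its hits outside hotspots, 29 of the 41 promoters were higher and 4 lower, beside 80.5% and 3.62% of all promoters. In densities, 15 of the 41 promoters had all 5 replicates above spo11-Y135F, against 54.8% of all, and 21 had all 5 below it, against 34.6%.

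Inside the ORFs the sporulation genes were as poor in hits as other genes. Their median ORF density was 0.0192 HpM per bp in SPO11+, against 0.0200 for all ORFs, and 0.0875 against 0.0860 in spo11-Y135F. All 41 ORFs held a lower share of hits in SPO11+ than in spo11-Y135F by edgeR's quasi-likelihood test with Benjamini-Hochberg adjustment, where 90.1% of all ORFs did, and none was higher, against 3.4% of all. In densities, all 5 replicates lay below spo11-Y135F in all 41 ORFs, against 90.9% of all ORFs, and above it in none, against 4.59%. But with TMM factors or DESeq2's size factors none of the 41 was lower and 4 or 7 were higher, so the direction of this difference follows the scale. Hotspots overlapped the ORFs of 3 of the 41 genes, SPS18, OSW1 and OSW2, and 9.1% of all ORFs. The ORF of SMA2, which acts in prospore membrane assembly, had the highest density, with 0.0502, 0.0468, 0.0574, 0.0516 and 0.0497 HpM per bp. The ORF of SPR1, a sporulation-specific glucanase, had 0.0529, 0.0434, 0.0513, 0.0414 and 0.0467 HpM per bp, and that of OSW1 had 0.0305, 0.0312, 0.0425, 0.0319 and 0.0449. The ORF ranges of SMA2 and SPR1 overlapped. That of OSW1 overlapped SPR1's, and all 3 stayed below their spo11-Y135F values of 0.0906, 0.0877 and 0.0858 HpM per bp.

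Comparing promoter with ORF of the same gene removes the library scale, since both come from 1 library. By edgeR's quasi-likelihood test with the replicate as a block and Benjamini-Hochberg adjustment over 5752 genes, the promoter was denser than the ORF in 33 of the 41 genes, against 89.1% of all genes, and less dense in none of them, against 4.87%. The median ratio of promoter to ORF was 3.77 over the sporulation genes and 5.92 over all ORFs, and it was 1.04 for both in spo11-Y135F. In 33 of the 41 genes the ratio of all 5 SPO11+ replicates exceeded that of spo11-Y135F, against 85.4% of all ORFs. The ratio was highest for CDA2, with 40.8, 84.0, 33.1, 34.2 and 40.8 in the 5 replicates and 0.939 in spo11-Y135F (log2 difference of promoter over ORF 5.45 ± 0.198, SE). CRR1 followed with 28.7, 43.0, 22.9, 36.4 and 36.4 (log2 5.03 ± 0.176, SE) and SMK1 with 14.2, 35.8, 14.3, 21.2 and 20.6 (log2 4.32 ± 0.223, SE). In each of these the highest ratio came from replicate 2, the deepest library, which had the lowest median ORF density over the sporulation genes, 0.0130 HpM per bp against 0.0186 to 0.0233 in the others. For NDT80 the ratios were 8.19, 20.9, 8.23, 18.9 and 11.0 (log2 3.64 ± 0.232, SE).

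The 8 genes whose promoter and ORF could not be told apart were GAS2, GAS4, SMA1, SPO1, SPO20, SPR6, SPS1 and SPS2. SMA1, which also acts in prospore membrane assembly, had ratios of 1.03, 0.964, 0.895, 1.07 and 1.03, a log2 difference of -0.01 ± 0.180 (SE, adjusted p = 0.960 in edgeR). SPR6 had 0.794, 0.805, 0.934, 0.922 and 2.15 (log2 0.00 ± 0.190, SE), and SPS2 had 1.24, 1.21, 0.970, 0.983 and 0.996 (log2 0.10 ± 0.183, SE). SMA1 differed from the other 2 in its level, since its promoter had 0.0378, 0.0264, 0.0355, 0.0360 and 0.0347 HpM per bp and its ORF 0.0342 ± 0.0046. The window decided some of these calls. With 1000 bp upstream the SPO20 difference became 1.82 (adjusted p = 1.03e-09 in edgeR), and with 300 bp the SPO1 difference became 0.61 (adjusted p = 0.00809 in edgeR) and that of GAS4 0.59 (adjusted p = 0.00719 in edgeR). The SMA1 promoter was less dense than its ORF when 1000 bp were taken, with a difference of -0.37 (adjusted p = 0.0146 in edgeR).

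**Figure D3:**
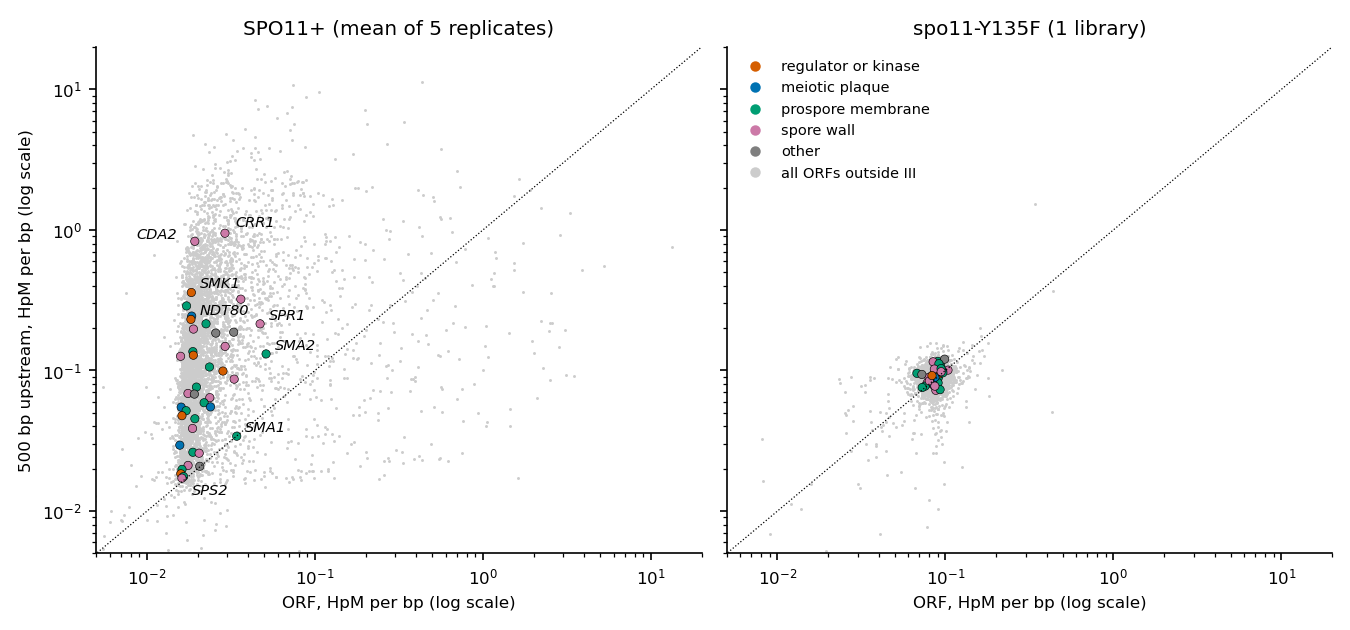
Density in the 500 bp upstream window against density in the ORF of the same gene, both in HpM per bp on log scales, for SPO11+ (left, mean of 5 replicates) and spo11-Y135F (right, 1 library). Coloured points are the 41 sporulation genes by role, grey points are all ORFs outside chromosome III, and the dotted line marks equal density. In SPO11+ the coloured points rise from the line at SPS2 and SMA1 up to CRR1 and CDA2, and in spo11-Y135F they cluster at the line, with a median ratio of 1.04.

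Hotspots overlapped 20 of the 41 upstream windows, against 59.8% of all windows. These 20 had a median promoter density of 0.192 HpM per bp and the 21 without a hotspot 0.0387, a split that the hotspot rule itself sets. Some of these hotspots peaked nearer the start of a divergent neighbour outside the list. Beside those of CDA2 and SMK1, they were at DTR1 (407 bp into the 626 bp gap to FZO1) and SPO75 (411 of 526 bp, ORC3). The others were at SPO74 (510 of 664 bp, SUA5), SMA2 (518 of 676 bp, ORC1) and SPO73 (880 of 1678 bp, ACA1). Those of CRR1 and OSW1 peaked nearer their own start. The hotspots of SPO73, SPO74 and SMA2 had their highest point outside the window. That of SPO73, a prospore membrane gene, was the strongest that touched any of the windows, with 677 ± 46.6 HpM on chromosome V from 242053 to 243047, and its highest point lay 880 bp before the start codon. The SPO73 window itself held 0.215 ± 0.0387 HpM per bp, while the 500 bp beyond it held 1.03 ± 0.120. For SMA2 the highest point lay 518 bp before the start, and its promoter call turned with the window: the log2 difference from spo11-Y135F was 0.57 (adjusted p = 0.0190 in edgeR) with 500 bp and -0.76 (adjusted p = 0.00883 in edgeR) with 300 bp. It did not pass with TMM factors, where it was 0.03 (adjusted p = 0.882 in edgeR), and the SMA2 promoter was not told from its ORF over 300 bp, with a difference of 0.13 (adjusted p = 0.574 in edgeR).

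Within the windows, the mean profile peaked at a similar distance from the start codon as in other genes. Averaged over the sporulation genes, the highest 25 bp bin was centred 188 bp before the start codon in 4 of 5 replicates and 163 bp before it in replicate 1. Over all ORFs it was at 188 bp in all 5. Over the 5 replicates the height of the bin was 0.263 to 0.331 HpM per bp for the sporulation genes and 0.414 to 0.476 for all ORFs. These ranges did not overlap, but they cover replicates and not the spread between genes. A few strong promoters weigh heavily in this mean, and in the median over genes the highest bin was centred 138 bp before the start for the sporulation genes (0.0912 HpM per bp) and 163 bp before it for all ORFs (0.113). In 28 of the 41 promoters the highest smoothed point lay 100 to 300 bp before the start, against 61.0% of all, and in 9 it lay more than 400 bp away, against 14.9% of all. That point was taken in every window, also in windows near ORF density such as that of SPS2 (118 bp). For DIT1, SPO74 and SMA2 it was the far edge of the window, at 500 bp. The mean profile had a shoulder near 500 bp upstream. The hotspots of CDA2 (491 bp), SPS100 (475 bp), SPO74 (510 bp) and SMA2 (518 bp) have their highest points there, that of CDA2 being the strongest of these.

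**Figure D4:**
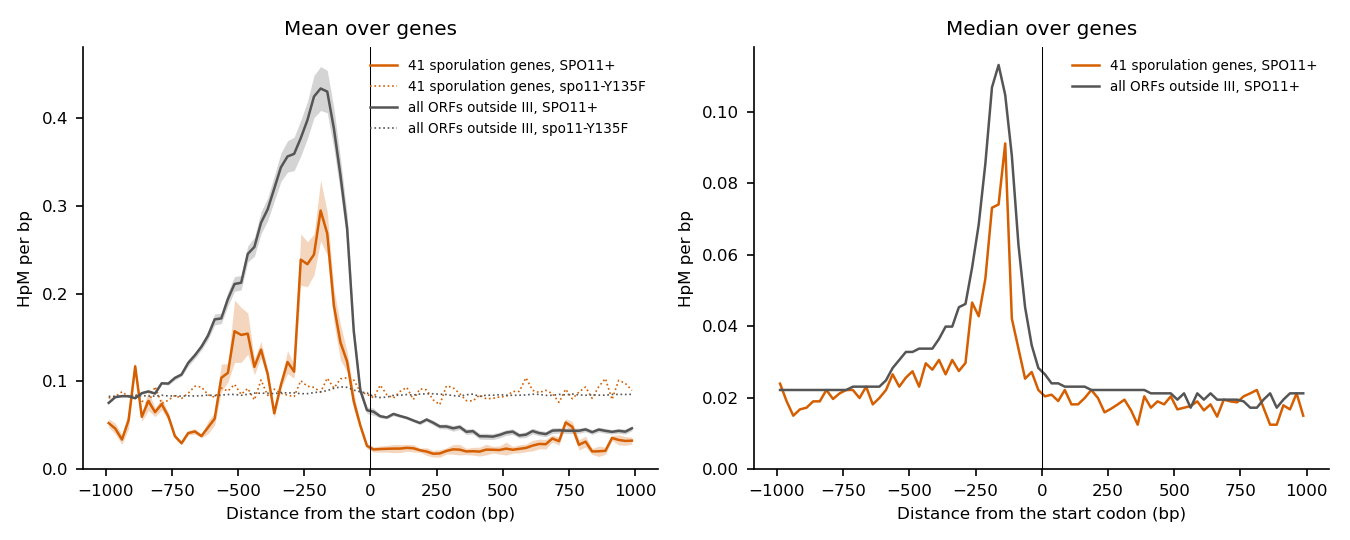
Hit density (HpM per bp) in 25 bp bins by distance from the start codon (bp), as the mean over genes (left, SPO11+ lines with a band of 1 SD over 5 replicates, dotted lines for the single spo11-Y135F library) and as the median over genes of the SPO11+ mean (right). In the mean the 41 sporulation genes and all ORFs both peak 188 bp before the start, at 0.295 and 0.434, in the median they peak 138 and 163 bp before it, and the highest bins of the dotted lines reach only 0.104 and 0.0937.

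Spo11 cuts both strands with a fixed stagger, so hits of 1 break fall on neighbouring nucleotides of the Watson and Crick strands. Watson hits and the Crick hits 1 bp further on correlated across the 743 to 1605 positions of the sporulation promoters with hits on both strands, with r of 0.701 to 0.789 in the 5 replicates, and r was 0.18 or less at the neighbouring offsets from -1 to 3 bp. Over all ORFs r at the 1 bp offset was higher, at 0.793 to 0.845 in the 5 replicates. In the sporulation promoters the catalytic mutant had an r of -0.09 at this offset, over 206 positions. Its highest r was 0.246, at 2 bp over 200 positions. These positions lie in few promoters and are not independent. The strongest paired site was in the CRR1 promoter, 258 bp before the start codon at position 568180 (Watson) and 568181 (Crick) of chromosome XII, with 41.6 ± 9.31 HpM, which was 8.74% of the hits in that window. At NDT80 the strongest site, 269 bp before the start, held 13.0 ± 5.00 HpM, or 11.2% of the window. No spo11-Y135F hit fell on the NDT80 site and 1 fell on the CRR1 site. The largest share of a window in 1 site was 19.9%, at SPS18, on the site it shares with SPS19.

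The strands were not balanced in every promoter. The Watson share of hits was 27.3% ± 3.42 at SMK1, 29.5% ± 2.87 at SPS100, a spore wall gene, and 33.7% ± 1.61 at MPC54. It was 68.0% ± 2.43 at SPO73 and 61.7% ± 2.01 at SSP1, which encodes the coat at the leading edge of the prospore membrane. The same windows in spo11-Y135F had 56.8%, 49.0%, 50.0%, 45.0% and 47.4% of hits on the Watson strand. The SPO73 window covers only the flank of its hotspot. CRR1 and CDA2 were near balance, with 53.1% ± 2.07 and 49.1% ± 1.98.

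Other genes of the programme were measured in the same way. Of 17 further middle or late genes, 11 promoters were higher in SPO11+ than in spo11-Y135F by edgeR's quasi-likelihood test and 3 were lower, beside 50.2% and 30.0% of all promoters. All 17 promoters were denser than their ORFs, beside 89.1% of all genes, and 12 windows overlapped a hotspot, beside 59.8% of all windows. Their median was 0.246 HpM per bp, with LDS2, a lipid droplet protein that takes part in spore wall assembly, highest at 1.78 ± 0.202 and CDC5, the polo kinase, lowest at 0.0251 ± 0.0075. Of 9 regulators of sporulation, 6 promoters were higher and 3 lower, and all 9 were denser than their ORFs, beside the same shares of all promoters, so that 3 of 9 lower is close to the general share. SUM1, the repressor of middle genes, had 0.237 ± 0.0282 HpM per bp. IME1, the master activator of meiotic entry, had 0.241 ± 0.0491. RIM15, a kinase that promotes meiotic entry, had the highest at 1.67 ± 0.187. The lower typical density of the 41 genes was not seen in the medians of these other lists, which were also chosen with earlier results known.

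SPS22, a spore wall gene related to SPS2, lies on the left arm of chromosome III. Its promoter had 0.0575 ± 0.0066 HpM per bp and 0.0671 in spo11-Y135F, and its ratio of promoter to ORF was 3.47 ± 1.12. The strain carries inserted sequence on this chromosome. Upstream windows of the 32 ORFs nearest its left end, SPS22 among them, had 2.98 times the ORF density there. This ratio was 10.3 on the other chromosomes and 0.868 for 115 ORFs further right on chromosome III. Shifting the coordinates by 50 or 100 bp to either side left the ratio at the left end between 2.82 and 3.09. Whether the inserted sequence affects the SPS22 window was not tested. Since chromosome III was left out of the counts, SPS22 was not ranked among the others.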

How the data were processed

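The deposited map of each library gives counts, not normalized, of hits at every nucleotide on each strand. The authors had aligned the read pairs by Bowtie2 (version not given in the sources used here) against Cer3H4L2, taken the 5′ end that carried the protein as the hit, and removed repeats, telomeres and rDNA. The authors also deposited an average map in HpM, a form of RPM, used only as an alternative input. No per-sample column was left unused (0). Copies made by PCR cannot be told from separate molecules, so the Wilson intervals cover counting error only.

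Samples were grouped from their labels. Genes, strands and names came from 6002 protein-coding genes of an R64 table, whose coordinates were used outside chromosome III and are not printed. Windows with at least 10 hits were tested with edgeR 4.0.16 in R 4.3.3 (glmQLFit and glmQLFTest, two-sided, level 0.05), with the library total as scale. DESeq2 1.42.0 was an alternative. Promoter and ORF of a gene come from 1 library, so the replicate was a block there. Densities came from pandas 2.3.3 and numpy 2.4.6 under Python 3.11.15. Intervals used scipy 1.17.1 and figures matplotlib 3.10.9. Hotspots were called on the mean map after smoothing with a Hann window reaching 100 bp to each side, and segments less than 200 bp apart were merged. The highest point of a window was taken after the same smoothing.

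On simulated counts over 5737 promoters, 63% of genes changed 2-fold and 97% of those changed 4-fold were recovered in the comparison of genotypes, and 0.199% of unchanged genes were called. Over 5742 genes the comparison of promoter with ORF recovered 97% and 100%, with 0.108% called wrongly. Every simulated library, the control included, had the same fixed spread, with no shift in scale between genotypes. Simulated ORFs were given the density of their promoter, which in SPO11+ was mostly higher than the real ORF density. These shares hold for such settings only and are not error rates of the real data.

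The genes and lists were chosen with earlier results of these data known. Values in every replicate were given for NDT80, the 6 highest and 6 lowest promoters, the 3 highest and 3 lowest ratios and the 3 densest ORFs. SPO73, SPS18, SPS19, DIT1, DIT2, CDA1 and the genes named for strand share or paired sites were picked after their values were seen. OSW5, of the further list, was not matched in the gene table. Promoter motifs and sequences are not analysed here.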

Additional observations from a re-analysis of the deposited data

Results flagged for a closer look

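Among 44 values with 5 replicates each, 5 promoters had 1 replicate far from the others by Dixon's test, where chance alone gives about 2.2 (1 in 20). GIP1, which targets protein phosphatase 1 in sporulation, had 0.0598 HpM per bp in replicate 1, and the nearest other replicate had 0.0466. SPO19, a prospore membrane gene, had 0.0582 in replicate 3, against 0.0444 for the nearest. OSW2, an outer spore wall gene, had 0.145 in replicate 4, against 0.0848. SPO73 had a low value of 0.148 in replicate 4, against 0.223, and SMA1 a low value of 0.0264 in replicate 2, against 0.0347. No replicate stood apart in more than 2 of these promoters.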

How the results depend on the processing

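The scale of the libraries moved the comparison of genotypes most. With hits outside hotspots as library size, promoters called higher went from 14 to 29 and those called lower from 20 to 4, ORFs called lower went from 41 to 16 and higher from 0 to 2, SMA1's promoter turned from -1.20 to 0.47 (adjusted p = 0.0791 in edgeR), and the median promoter density became 0.262. TMM factors and DESeq2 left 0 ORFs lower and called 4 and 7 higher. These scales moved the median log2 difference of all promoters by -0.54 (TMM), -0.51 (DESeq2) and 1.68 (outside hotspots), and that of all ORFs by 2.05, 2.09 and 1.65. With 1000 bp upstream the median promoter density was 0.0555, NDT80's difference from spo11-Y135F was 0.37 (adjusted p = 0.173 in edgeR), and 1 promoter was less dense than its ORF, as was 1 with the first 300 bp of ORFs left out. That promoter was SMA1 in both. With 300 bp upstream the ratio of medians was 0.530 and SMA2's promoter turned to -0.76. Windows ending at the neighbouring ORF gave a median of 0.110 over 40 genes and a ratio of 0.728. At 5 times the mean, 13 windows overlapped a hotspot. The cause of these changes was not tested. Under the other settings 82 summary values and 372 values of single genes were held to be unchanged. They kept their side of the threshold, stayed within 1 SD of the replicates or, for counts of calls, stayed near the main count. The rule for counts was loose. Against 14 promoters higher, 11 with TMM factors and 10 with 1000 bp upstream passed as unchanged, as did 24 lower with 1000 bp against 20. Of single genes, 8 values lost a call and 6 gained one.

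Without each replicate in turn, 14 to 15 promoters were higher and 19 to 20 lower, 40 to 41 ORFs were lower, 32 to 34 promoters were denser than their ORF, the median was 0.0716 to 0.0817, its ratio to all promoters 0.586 to 0.658, and 19 to 21 windows overlapped a hotspot. Without the replicate block, 33 of 41 promoters were denser than their ORF. No paired analysis was possible for the genotypes because they share only replicate number 1. The lowest promoters rest on 24 to 69 hits per SPO11+ library. The planned motif search was not run.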
